A study of Mus musculus with 8 samples.

Results

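G1/S and DNA replication genes are the genes that license replication origins, unwind and copy the DNA, supply its building blocks and decide whether a cell leaves G1. Members were 59 listed gene symbols, each matched to the same symbol in the count table, and all 59 were found among its 49997 genes. They were measured by RNA-seq in EO771 cells, a mouse breast cancer line, in 8 libraries with 2 per group. Cells of the first comparison received vehicle (2% DMSO in saline) or 12-HETE, a lipid that the lipoxygenase ALOX12 makes from arachidonic acid, at 100 nM for 48 h. Cells of the second comparison had been transduced with an empty vector or with a vector for overexpression of ADAR1 p150, the long isoform of an RNA editing enzyme. Whether the transduced cells were a clone or a pool is not given in the sources used here. For an editing analysis of the same comparisons the study speaks of independent experiments, while the labels tie no library to an experiment or culture, and the p-values measure the spread between these libraries. The study asked how 12-HETE and ADAR1 p150 act on tumour cells, and the members were compared between 12-HETE and vehicle and between ADAR1 p150 and vector.

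In G1, the origin recognition complex (ORC) marks origins, and Cdc6 and Cdt1 load the MCM helicase on them. D-type cyclins with Cdk4 or Cdk6, and then E-type cyclins with Cdk2, phosphorylate the retinoblastoma protein Rb1 and its relatives, which releases E2F factors. E2F factors bind promoters of many replication genes, so that these genes are made together as cells enter S phase, and the inhibitors p21 (Cdkn1a) and p27 (Cdkn1b) restrain the kinases. Replication genes are therefore widely read as markers of proliferating cells, tumour cells among them. In bulk RNA, more cells in S phase and more RNA per cell cannot be told apart.

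The promoters of 6 members are shown because their genes form the helicase (Mcm2, Mcm3, Mcm5, Mcm6), supply deoxynucleotides (Rrm1) or coat single-stranded DNA (Rpa1), and 4 of these genes rose with 12-HETE. Each line gives the 250 bases before the RefSeq start in GRCm38.p6, 5′ to 3′ on the strand of the gene. Capitals mark matches, on either strand, to E2F-type motifs (TTTCCCGC, TTTCGCGC, TTTGGCGC or TTTGCCGC, which may overlap each other) or to CCAAT, which reads ATTGG on the other strand.
Mcm2, chr6:88898781-88899030, minus strand: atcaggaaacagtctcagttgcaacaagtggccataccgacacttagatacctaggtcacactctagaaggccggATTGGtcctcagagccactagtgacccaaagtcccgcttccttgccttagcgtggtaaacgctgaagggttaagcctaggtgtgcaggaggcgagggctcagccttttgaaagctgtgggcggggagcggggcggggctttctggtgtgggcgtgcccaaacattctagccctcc
Mcm3, chr1:20820313-20820562, minus strand: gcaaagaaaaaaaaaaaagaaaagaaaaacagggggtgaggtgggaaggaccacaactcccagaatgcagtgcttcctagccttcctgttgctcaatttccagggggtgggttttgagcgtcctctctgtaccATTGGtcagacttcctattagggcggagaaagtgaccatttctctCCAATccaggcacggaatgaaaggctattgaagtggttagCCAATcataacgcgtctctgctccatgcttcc
Mcm5, chr8:75109259-75109508, plus strand: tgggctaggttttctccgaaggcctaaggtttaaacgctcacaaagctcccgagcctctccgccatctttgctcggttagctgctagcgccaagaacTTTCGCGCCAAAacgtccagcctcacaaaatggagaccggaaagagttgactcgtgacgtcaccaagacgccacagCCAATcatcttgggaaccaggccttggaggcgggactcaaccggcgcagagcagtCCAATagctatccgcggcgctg
Mcm6, chr1:128359706-128359955, minus strand: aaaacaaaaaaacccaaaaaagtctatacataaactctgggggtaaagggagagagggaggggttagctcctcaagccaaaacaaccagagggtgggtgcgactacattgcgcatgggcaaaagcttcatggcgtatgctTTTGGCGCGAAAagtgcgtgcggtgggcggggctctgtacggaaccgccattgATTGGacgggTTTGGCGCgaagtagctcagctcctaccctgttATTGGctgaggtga
Rrm1, chr7:102441445-102441694, plus strand: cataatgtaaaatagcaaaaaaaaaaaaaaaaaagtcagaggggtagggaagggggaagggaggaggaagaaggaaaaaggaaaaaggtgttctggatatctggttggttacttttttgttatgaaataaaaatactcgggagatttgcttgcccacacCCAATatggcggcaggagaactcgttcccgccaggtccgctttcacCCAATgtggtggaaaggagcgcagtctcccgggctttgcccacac
Rpa1, chr11:75348384-75348633, minus strand: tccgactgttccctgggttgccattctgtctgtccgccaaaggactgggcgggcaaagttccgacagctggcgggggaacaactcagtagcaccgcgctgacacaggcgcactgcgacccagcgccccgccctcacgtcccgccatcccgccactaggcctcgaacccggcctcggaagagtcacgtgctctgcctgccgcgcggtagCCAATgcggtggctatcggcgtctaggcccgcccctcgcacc

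RefSeq promoter windows, from 250 bases before to 50 after a start, were matched for 47 of the 59 members, with 59 windows in all. An E2F-type motif was found in 19 of the 59 windows (32.2%), against 744 of the 32851 windows of all genes (2.26%). CCAAT was found in 31 windows of members (52.5%), against 12289 windows of all genes (37.4%). In Mcm5, an E2F-type match on each strand began 153 and 149 bases before the start, and in Mcm6 such matches began 110, 106 and 47 bases before it. The E2F-type matches of Mcm3, at positions 20 and 39 after the start, lie outside the stretch shown. Mcm2, Rrm1 and Rpa1 held only CCAAT by these letters. A match is a description of letters and not of binding, and E2F-type motifs were found both in members that rose with 12-HETE (Cdc6, Mcm3) and in members that did not pass its test (Mcm5, Mcm6, Mcm7, Orc3).

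**Figure D1:**
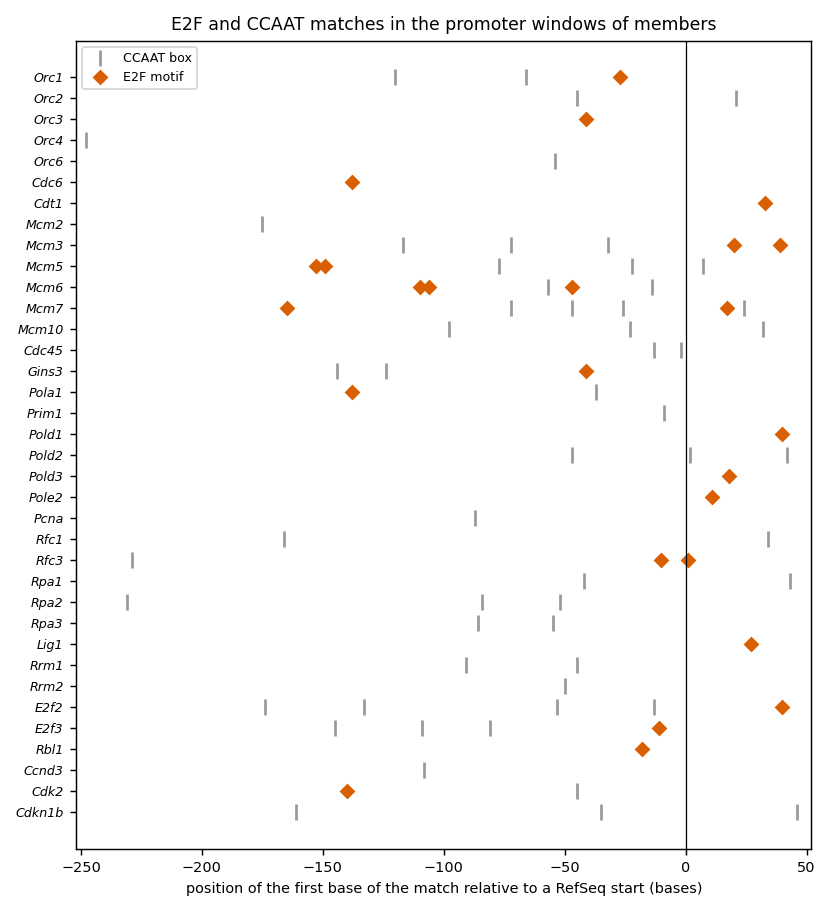
Positions of E2F-type motifs (diamonds) and CCAAT (ticks) in the RefSeq promoter windows of the members that hold any match, one member per line, in bases from a start. Windows of a gene with several starts are laid over each other, and E2F-type matches in Mcm6 lie at -110, -106 and -47.

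The libraries held between 1101767 and 1537037 counts, with more in treated libraries than in their controls. AY036118, a gene chosen after its values were seen, took 44.4% to 50.3% of the counts. Adar, the gene overexpressed in the second comparison, had 181 and 140 counts with ADAR1 p150, against 2 and 8 with vector. Gapdh, an abundant housekeeping gene in most cells, had only 13 to 42 counts per library and Actb 364 to 1227, both chosen after their values were seen. The strand setting of the counting was not given, so a count may belong to a transcript of the opposite strand. Of 10 epithelial markers, 5 were high enough to be tested (Krt7, Krt8, Krt18, Krt19 and Cldn3), Cdh1 was at 0 in every library, and the summed level of the list was 203 to 352 normalised CPM. Normalised CPM are counts scaled to a common library total with TMM factors. The 8 immune markers summed to 20.7 to 42.2 normalised CPM with Cd3e and Adgre1 among those at 0, the 6 endothelial markers to 1.41 to 11.3, and the 7 fibroblast markers to 9.13 to 42.2 with Col1a2 and Lum at 0. The immune marker counts lay mostly in Cd68 (149 over the 8 libraries), Cd74 (114) and Csf1r (66), and the fibroblast marker counts mostly in Dcn (254). Immune markers summed to 34.2 and 34.0 normalised CPM with vehicle, and to 23.5 and 20.7 with 12-HETE, and endothelial markers to 8.56 and 6.64 against 2.14 and 2.30. Of the 5 epithelial markers tested, 2 fell with 12-HETE (of all genes, 14.2% were lower), and 2 rose and 1 fell with ADAR1 p150 (of all genes, 14.5% were higher and 11.1% lower). Their part in the results was not tested.

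Members were sparse in these libraries. Together they held 1373 to 2395 counts per library, or 0.12% to 0.156% of the total, and 27 of the 59 reached the mean of 10 counts needed for a test, as did 6901 genes of the table. The other 32 had at most 79 counts over all 8 libraries, and Rpa3 and Ccnd2 had none, where a count of 0 allows up to 2.74 normalised CPM per library (3 counts, counting error only). The 9 members that are subunits of the DNA polymerases and primase (Pola1, Pola2, Prim1, Prim2, Pold1, Pold2, Pold3, Pole and Pole2), which synthesise the primers and the new strands, were all below the minimum, so 0 of 9 could be tested. Their summed level was 41.1 and 78.0 normalised CPM (vehicle), 61.3 and 55.1 (12-HETE), 42.9 and 52.4 (vector) and 50.7 and 55.9 (ADAR1 p150), so treated and control libraries overlapped in both comparisons. Per kilobase of exon, the mean level over the 8 libraries was highest for Fen1 (168 normalised CPM per kb), followed by Orc3 (32.2), Ccne2 (23.7), Pcna (11.9) and Mcm7 (11.7). Among members with any count it was lowest for Ccne1, at 0.184 normalised CPM per kb.

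With 12-HETE, 9 of the 27 tested members rose and none fell. The risers were the licensing factor Cdc6, the helicase subunits Mcm2 and Mcm3, the single-strand binding subunit Rpa1, the flap endonuclease Fen1, the large ribonucleotide reductase subunit Rrm1 and the cyclins Ccnd1, Ccnd3 and Ccne2. This is 33.3% of the members tested, where 15.1% of the 6901 genes tested were higher and 14.2% were lower. Mcm2, Mcm3, Rpa1, Rrm1 and Ccnd3 rose by at least 2-fold, as did 6.12% of all genes. The log2 fold changes of the 27 members ran from -1.46 to 1.29, with 18 above 0 and 9 below, and their median was 0.42, against 0.0044 over all genes tested. Adjusted p-values are those of the quasi-likelihood test in edgeR, adjusted by Benjamini-Hochberg over the 6901 genes. With DESeq2, which called 6.96% of genes higher, only Fen1 and Rrm1 passed. The 9 calls became 4 higher and 1 lower without vehicle replicate 4 and 5 higher without 12-HETE replicate 4, the lower one being Cdkn1b, and among the 9, Fen1 and Ccnd3 passed whichever library of the comparison was left out.

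In GRCm38 (GENCODE M21), the risers not placed above by their promoters are Cdc6 at chr11:98907801-98923940 (plus strand), Fen1 at chr19:10199132-10204169 (minus), Ccnd1 at chr7:144929931-144939925 (minus), Ccnd3 at chr17:47505051-47599691 (plus) and Ccne2 at chr4:11191351-11204779 (plus). Counts are summed over the exons of each gene, so they do not separate its isoforms.

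**Figure D2:**
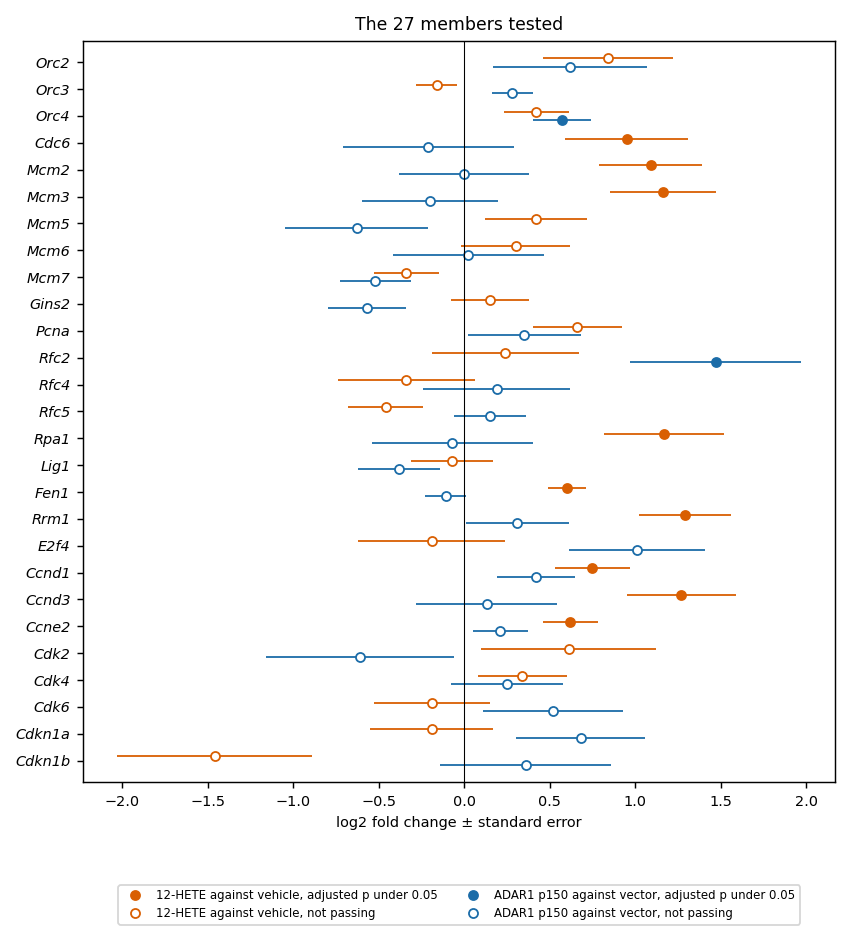
Log2 fold changes of the 27 members tested, ordered by role, with bars of 1 standard error on either side, for 12-HETE against vehicle (orange) and ADAR1 p150 against vector (blue), from 2 libraries per group. Filled points passed an adjusted p under 0.05: 9 members with 12-HETE, all to the right of 0, and 2 with ADAR1 p150.

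Of the 8 genes of origin recognition and licensing, 4 were tested. Cdc6, the ATPase that recruits the MCM helicase to ORC, had counts of 10 and 18 (vehicle), 33 and 29 (12-HETE), 7 and 11 (vector) and 13 and 6 (ADAR1 p150). It rose with 12-HETE from 11.7 ± 4.51 to 22.9 ± 0.941 normalised CPM (SD, n = 2 libraries each), a log2 fold change of 0.95 (standard error 0.36, edgeR adjusted p = 0.0458), and both 12-HETE libraries lay above both vehicle libraries. The call was lost with DESeq2, without AY036118 and Rn7s genes, with no count minimum, with a block for the replicate number and without vehicle replicate 4 (log2 fold change 0.61), 12-HETE replicate 4 (0.91) or 12-HETE replicate 5 (0.99). The ADAR1 p150 libraries lay on either side of a vector library, and the log2 fold change there was -0.21 (edgeR adjusted p = 0.807). Orc4, a subunit of ORC, rose with ADAR1 p150 and not by the test with 12-HETE. It had counts of 59 and 66 (vehicle), 107 and 84 (12-HETE), 77 and 66 (vector) and 143 and 117 (ADAR1 p150). Its level was 94.5 ± 8.60 normalised CPM with ADAR1 p150 against 64.0 ± 8.92 with vector (SD, n = 2 libraries each), a log2 fold change of 0.57 (standard error 0.17, edgeR adjusted p = 0.0143), and all 4 treated libraries lay above their own controls. With 12-HETE its log2 fold change was 0.42 (edgeR adjusted p = 0.0878), and the difference between the effects, 0.15, did not pass (edgeR adjusted p = 0.769). Orc2 and Orc3, also ORC subunits, did not pass in either comparison, with log2 fold changes of 0.84 and -0.16 with 12-HETE and 0.62 and 0.28 with ADAR1 p150.

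The helicase group, 12 genes that form or activate the replicative helicase, had 6 members tested, and Mcm2 and Mcm3 rose with 12-HETE. Both are subunits of the ring of 6 MCM proteins that unwinds the DNA. Mcm2 had counts of 17 and 21 (vehicle), 54 and 39 (12-HETE), 14 and 13 (vector) and 17 and 16 (ADAR1 p150). It rose from 16 ± 2.03 to 34.2 ± 6.12 normalised CPM with 12-HETE (SD, n = 2 libraries each), a log2 fold change of 1.09 (standard error 0.30, edgeR adjusted p = 0.00503), while with ADAR1 p150 the log2 fold change was -0.0038 (standard error 0.38). Mcm3 had counts of 18 and 23 (vehicle), 54 and 51 (12-HETE), 10 and 21 (vector) and 23 and 10 (ADAR1 p150). It rose from 17.2 ± 2.60 to 38.8 ± 0.380 normalised CPM with 12-HETE (SD, n = 2 libraries each), a log2 fold change of 1.16 (standard error 0.31, edgeR adjusted p = 0.00443), and the ADAR1 p150 and vector libraries overlapped. For Mcm2 and Mcm3, both 12-HETE libraries were above all 6 other libraries. Mcm5, another ring subunit, had counts of 23 and 32 (vehicle), 45 and 39 (12-HETE), 18 and 11 (vector) and 15 and 8 (ADAR1 p150). Its log2 fold changes, 0.42 with 12-HETE (edgeR adjusted p = 0.31) and -0.63 with ADAR1 p150 (edgeR adjusted p = 0.299), did not pass.

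The other tested helicase members were the ring subunits Mcm6 and Mcm7 and Gins2, a subunit of the GINS complex that joins the active helicase. Their log2 fold changes with 12-HETE were 0.30, -0.34 and 0.15, and with ADAR1 p150 they were 0.024, -0.52 (edgeR adjusted p = 0.0713) and -0.57 (edgeR adjusted p = 0.0653). Over the 6 tested helicase members, 5 log2 fold changes were above 0 with 12-HETE (median 0.36) and 1 was above 0 with ADAR1 p150 (median -0.36). Of the 6901 genes tested, 3478 were above 0 with 12-HETE and 3765 with ADAR1 p150. The difference between the effects was below 0 for 6 of 6 (3169 of all genes tested), and it passed for none. Between the controls, vector against vehicle, 5 of these 6 members were below 0 (median -0.36). Over all 12 genes, the summed level was 178 and 236 normalised CPM (vehicle), 261 and 251 (12-HETE), 164 and 164 (vector) and 135 and 107 (ADAR1 p150). The 12-HETE libraries thus held the highest helicase sums and the ADAR1 p150 libraries the lowest.

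**Figure D3:**
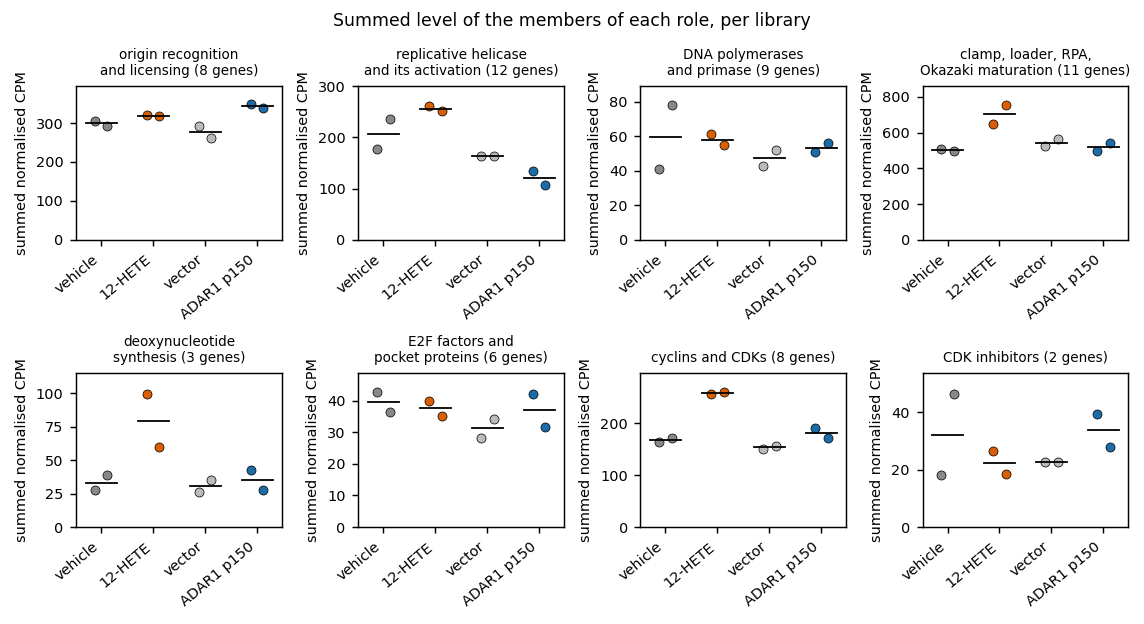
Summed normalised CPM of all members of each role in each library (points), with the mean of the 2 libraries of a group (line), tested members and members below the minimum included. The 12-HETE libraries are highest for the helicase genes (261 and 251), and the ADAR1 p150 libraries are lowest there (135 and 107).

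Of the 11 genes of the clamp, the clamp loader, replication protein A (RPA) and Okazaki fragment maturation, 7 were tested. Fen1, which removes the flaps between Okazaki fragments, held by far the most counts of all members and had the smallest standard error with 12-HETE. It had counts of 416 and 380 (vehicle), 625 and 752 (12-HETE), 426 and 483 (vector) and 491 and 538 (ADAR1 p150). Its level rose with 12-HETE from 336 ± 28.9 to 511 ± 92.0 normalised CPM (SD, n = 2 libraries each), a log2 fold change of 0.60 (standard error 0.11, edgeR adjusted p = 9.2e-05). With ADAR1 p150 it was 376 ± 43.3 against 405 ± 23.4 with vector (SD, n = 2 libraries each), a log2 fold change of -0.11 (standard error 0.12, edgeR adjusted p = 0.537), and those libraries overlapped. The effect of ADAR1 p150 was below that of 12-HETE by 0.71 on the log2 scale (difference -0.71, standard error 0.16, edgeR adjusted p = 0.002).

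Rpa1, the large subunit of RPA, which coats single-stranded DNA, had counts of 11 and 15 (vehicle), 39 and 28 (12-HETE), 7 and 11 (vector) and 12 and 9 (ADAR1 p150). Its level was 24.6 ± 4.51 normalised CPM with 12-HETE against 10.9 ± 2.14 with vehicle (SD, n = 2 libraries each), a log2 fold change of 1.17 (standard error 0.35, edgeR adjusted p = 0.0105), with both 12-HETE libraries above all 6 others. Pcna, the sliding clamp that holds the polymerases on DNA, had counts of 30 and 39 (vehicle), 74 and 51 (12-HETE), 12 and 27 (vector) and 36 and 25 (ADAR1 p150). The 12-HETE libraries were above the vehicle libraries, but its log2 fold change of 0.66 (standard error 0.26) did not pass (edgeR adjusted p = 0.0544), nor did 0.35 with ADAR1 p150 (edgeR adjusted p = 0.487). Rfc2, a subunit of the loader that opens the clamp, had counts of 9 and 11 (vehicle), 14 and 13 (12-HETE), 5 and 4 (vector) and 15 and 16 (ADAR1 p150). It rose with ADAR1 p150 from 4.03 ± 0.756 to 11.3 ± 1.09 normalised CPM (SD, n = 2 libraries each), a log2 fold change of 1.47 (standard error 0.50, edgeR adjusted p = 0.028). The call rests on few counts and was lost when any library of that comparison was left out. The loader subunits Rfc4 and Rfc5 and the DNA ligase Lig1, which seals nicks, did not pass in either comparison, with log2 fold changes from -0.46 to 0.19.

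Rrm1 and Rrm2 encode the subunits of ribonucleotide reductase, which makes deoxynucleotides, and Tyms encodes thymidylate synthase. Rrm1 had counts of 24 and 38 (vehicle), 115 and 59 (12-HETE), 24 and 35 (vector) and 55 and 35 (ADAR1 p150). Its level rose from 26.0 ± 7.76 to 63.6 ± 26.1 normalised CPM with 12-HETE (SD, n = 2 libraries each), and its log2 fold change of 1.29 (standard error 0.27, edgeR adjusted p = 0.000314) was the largest of the 27 members in that comparison. The 12-HETE libraries differed from each other, at 82.0 and 45.2 normalised CPM, and both were above all 6 others. Without 12-HETE replicate 4, the higher of them, the log2 fold change was 0.79 and did not pass. Rrm2, not tested, had counts of 7 and 6 (vehicle), 19 and 12 (12-HETE), 5 and 5 (vector) and 4 and 2 (ADAR1 p150), so its 12-HETE libraries were also the highest. Tyms had 18 counts in all.

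The E2F factors and pocket proteins were mostly below the minimum, with 1 of 6 tested. E2f1, an activating E2F factor, had counts of 9 and 5 (vehicle), 8 and 7 (12-HETE), 5 and 3 (vector) and 6 and 4 (ADAR1 p150). Rb1, which holds E2F factors in check, had counts of 5 and 6 (vehicle), 3 and 5 (12-HETE), 5 and 3 (vector) and 3 and 4 (ADAR1 p150). In normalised CPM, treated and control libraries of E2f1 overlapped in both comparisons, and those of Rb1 overlapped with ADAR1 p150. Rb1 was at 4.28 and 4.98 with vehicle and at 2.14 and 3.83 with 12-HETE, values of 3 to 6 counts that were too few for a test. E2f4, a repressive E2F factor and the one member of this role with a test, had log2 fold changes of -0.19 with 12-HETE and 1.01 with ADAR1 p150 (edgeR adjusted p = 0.0629).

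Among the 8 cyclins and cyclin-dependent kinases, 6 were tested and 3 cyclins rose with 12-HETE. Ccnd1, cyclin D1, had counts of 32 and 43 (vehicle), 71 and 73 (12-HETE), 33 and 40 (vector) and 64 and 56 (ADAR1 p150). Its level was 53.3 ± 3.72 normalised CPM with 12-HETE against 31.5 ± 5.85 with vehicle (SD, n = 2 libraries each), a log2 fold change of 0.75 (standard error 0.22, edgeR adjusted p = 0.0093). With ADAR1 p150 both libraries were also above both controls, but the log2 fold change of 0.42 did not pass (edgeR adjusted p = 0.184). Ccnd3, cyclin D3, had counts of 14 and 20 (vehicle), 43 and 51 (12-HETE), 14 and 9 (vector) and 18 and 13 (ADAR1 p150). It rose with 12-HETE from 14.3 ± 3.26 to 34.9 ± 5.93 normalised CPM (SD, n = 2 libraries each), a log2 fold change of 1.27 (standard error 0.32, edgeR adjusted p = 0.00205). Ccne2, cyclin E2, had counts of 79 and 79 (vehicle), 149 and 129 (12-HETE), 82 and 87 (vector) and 126 and 114 (ADAR1 p150). Its level rose from 66.6 ± 1.48 to 103 ± 5.30 normalised CPM with 12-HETE (SD, n = 2 libraries each), a log2 fold change of 0.62 (standard error 0.16, edgeR adjusted p = 0.00273), and with ADAR1 p150 the log2 fold change was 0.21 (edgeR adjusted p = 0.366).

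Ccne1, cyclin E1, had 1 and 3 counts with 12-HETE, 1 in a vector library and none elsewhere, so no change could be read. Cdk4, the kinase partner of D-type cyclins, had counts of 40 and 30 (vehicle), 52 and 49 (12-HETE), 14 and 23 (vector) and 33 and 21 (ADAR1 p150). Its log2 fold changes, 0.34 with 12-HETE (edgeR adjusted p = 0.362) and 0.25 with ADAR1 p150 (edgeR adjusted p = 0.643), did not pass, and neither did those of Cdk2 and Cdk6, from -0.61 to 0.61.

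Neither CDK inhibitor passed. Cdkn1a, which encodes p21, had counts of 14 and 36 (vehicle), 34 and 16 (12-HETE), 18 and 14 (vector) and 35 and 28 (ADAR1 p150). Vehicle and 12-HETE libraries overlapped, and the log2 fold change was -0.19 (edgeR adjusted p = 0.746), while both ADAR1 p150 libraries lay above both vector libraries with a log2 fold change of 0.68 (edgeR adjusted p = 0.202). Cdkn1b, which encodes p27, had counts of 7 and 20 (vehicle), 3 and 8 (12-HETE), 7 and 12 (vector) and 21 and 9 (ADAR1 p150). Its log2 fold change of -1.46 with 12-HETE (standard error 0.57) was the lowest of the 27 members but did not pass (edgeR adjusted p = 0.0513), and the libraries overlapped. It passed as lower with RLE factors (another scaling in edgeR, adjusted p = 0.0364), without AY036118 and Rn7s genes (0.0299), with no minimum (0.0446), with only the libraries of the comparison (0.0172) and without vehicle replicate 4 (0.0114) or 12-HETE replicate 5 (0.037), but not with DESeq2 (0.253) or without vehicle replicate 5 (0.637) or 12-HETE replicate 4 (0.378).

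**Figure D4:**
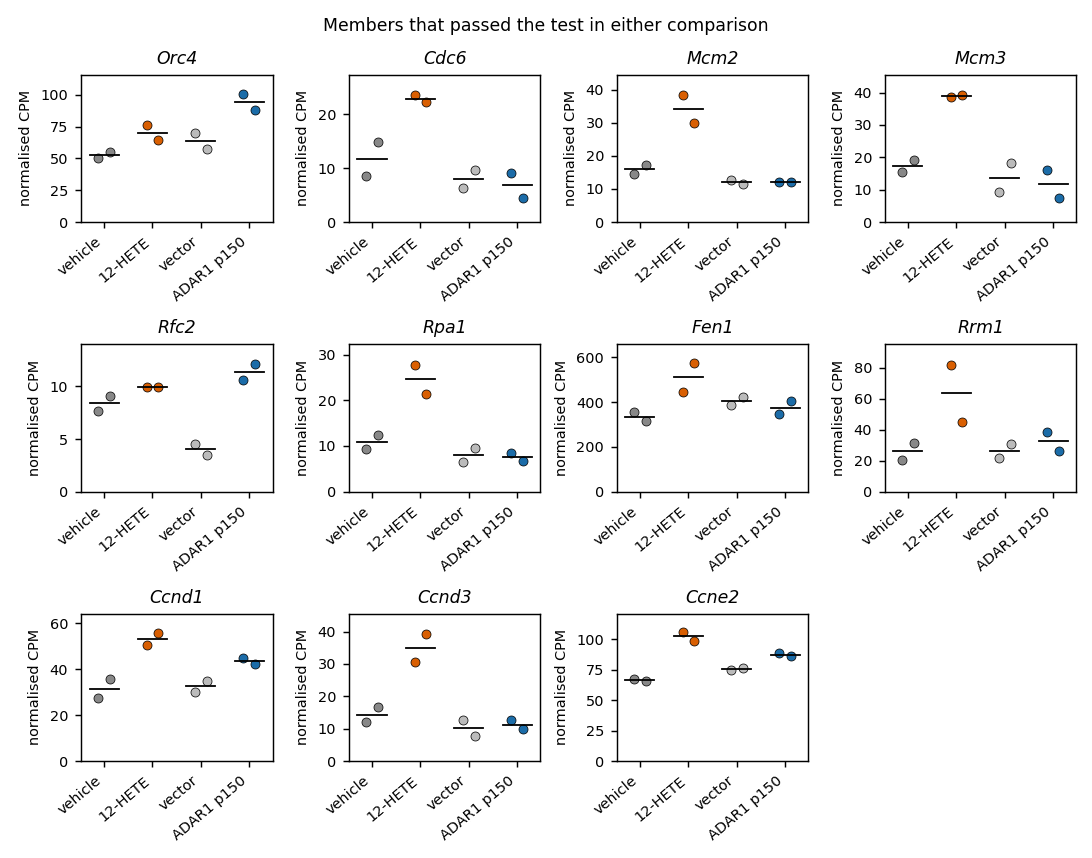
Normalised CPM in each library (points) and the mean of the 2 libraries of a group (line) for the 11 members that passed an adjusted p under 0.05 in either comparison, on linear axes that start at 0. Both 12-HETE libraries lie above all 6 others in 13 of the 27 tested members (16.9% of all genes tested), and these include the 9 that rose, for which the test with 12-HETE fixed part of the pattern.

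With ADAR1 p150, Orc4 and Rfc2 were the members that rose and none fell, so 7.41% of the 27 tested members were higher, against 14.5% of all genes higher and 11.1% lower. Rfc2 rose by at least 2-fold, as did 8.11% of all genes, and the median log2 fold change of the members was 0.19, against 0.066 over all genes. That median was -0.18 with no count minimum and 0.0045 without ADAR1 p150 replicate 1 or 0.082 without vector replicate 1. With DESeq2, which called 6.14% of genes higher, no member passed and 0 were at an unadjusted p under 0.05, against 6 in edgeR. The Orc4 call was lost without vector replicate 2 (log2 fold change 0.43) or ADAR1 p150 replicate 1 (0.47). The scaling also moved this comparison: with RLE factors, or without AY036118 and Rn7s genes, 4 members passed, with Orc4 and Rfc2 higher and Mcm7 and Gins2 lower. No member passed in both treatments, and of the 27, 10 were above 0 in both, 2 were below 0 in both, 8 were above 0 with 12-HETE and below 0 with ADAR1 p150, and 7 were the reverse.

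In the test of the difference between the effects, Fen1 alone of the 27 members passed, while 15.0% of all genes tested did, and the median difference of the members was -0.31 (0.074 over all genes). A call in one comparison and not in the other is therefore shown to differ only for Fen1. The control groups were also compared, vector against vehicle, although transduction, vehicle treatment and any batch cannot be told apart there. No member passed with edgeR or DESeq2 (6 and 1 at an unadjusted p under 0.05), 0.116% of all genes did, and the median of the members was -0.41 against -0.0083 over all genes. Of the 27 members, 19 had a log2 fold change below 0 there.

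Some members overlap a gene on the opposite strand. In the GENCODE M21 annotation, 22 of the 59 members overlap a gene of the table on the opposite strand, and 19 share exon bases with it. In 13 of the 22 pairs that share exon bases, the other gene held more counts than the member. The members that share exon bases had a median of 182 counts over the 8 libraries, against 69 for those that share none. How much of a member's count comes from the opposite strand was not tested.

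**Figure D5:**
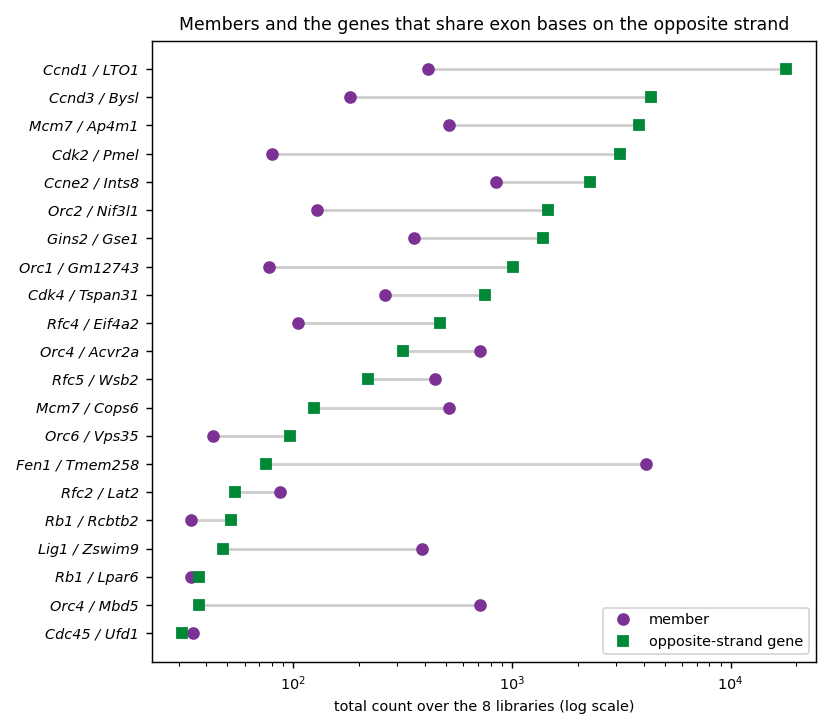
Total counts over the 8 libraries of each member (circles) and of the gene that shares exon bases with it on the opposite strand (squares), on a log axis, for the pairs in which both have counts. LTO1 had 17952 counts and Ccnd1 far fewer, while Fen1 exceeds Tmem258.

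The partner of Ccnd1 is LTO1, which shares 1100 exon bases with it and had 43.6 times its counts. LTO1 had counts of 1204 and 1180 (vehicle), 3533 and 3565 (12-HETE), 1090 and 1181 (vector) and 3077 and 3122 (ADAR1 p150). It rose in both comparisons, with log2 fold changes of 1.39 with 12-HETE (edgeR adjusted p = 1.43e-13) and 1.16 with ADAR1 p150 (edgeR adjusted p = 1.58e-11). Ints8, a subunit of the Integrator complex, shares 609 exon bases with Ccne2, had 2.7 times its counts and rose by 1.51 with 12-HETE (edgeR adjusted p = 2.21e-12) and by 0.90 with ADAR1 p150 on the log2 scale (edgeR adjusted p = 5.58e-07). Bysl, a ribosome biogenesis factor, shares 361 exon bases with Ccnd3, had 23.7 times its counts and rose with 12-HETE by 0.57 on the log2 scale (edgeR adjusted p = 4.65e-05). The 3 cyclins that rose with 12-HETE thus each lie opposite a more abundant gene that rose as well.

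Among members that did not rise, Gse1 (opposite Gins2) rose with 12-HETE and fell with ADAR1 p150, with log2 fold changes of 0.56 and -0.40. Ap4m1 (opposite Mcm7) fell with ADAR1 p150, at -0.38, and was at 0.025 with 12-HETE. Nif3l1 (opposite Orc2) rose in both, by 0.74 and 0.51 on the log2 scale. Gm12743 (opposite Orc1) and Eif4a2 (opposite Rfc4) rose with 12-HETE, by 1.15 and 0.74 on the log2 scale. Pmel (opposite Cdk2, 38.9 times its counts) and Tspan31 (opposite Cdk4, 2.87 times) passed in neither comparison. Vps35 (opposite Orc6) and Rcbtb2 and Lpar6 (opposite Rb1) also had more counts than the member, with 97, 52 and 37 counts in all.

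Fen1, Orc4 and Rfc2 had more counts than their opposite-strand genes, among them Tmem258 with 75 counts opposite Fen1 and Lat2 with 54 opposite Rfc2. With the strand setting not given, more counts in the member do not show that they come from its own strand. That was not tested for Fen1 either. Acvr2a, an activin receptor, shares 446 exon bases with Orc4 and had 319 counts (0.444 times those of Orc4). It rose with ADAR1 p150, by 0.88 on the log2 scale (edgeR adjusted p = 0.0136). With 12-HETE its log2 fold change of 0.59 did not pass (edgeR adjusted p = 0.0742). The 37 members with no opposite-strand gene in the table had 13 members tested, of which 5 rose with 12-HETE (Cdc6, Mcm2, Mcm3, Rpa1 and Rrm1) and none passed with ADAR1 p150. The risers among the helicase, licensing, RPA and ribonucleotide reductase genes thus overlap no opposite-strand gene of the table, while Fen1 and the cyclins do.

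Further genes of replication and of G1/S control were described from fixed lists. Of 30 other replication fork and origin genes, 11 were tested. Mcm9, an MCM relative with roles in DNA repair, rose with 12-HETE (log2 fold change 0.55, edgeR adjusted p = 0.000137) and fell with ADAR1 p150 (-0.45, edgeR adjusted p = 0.00295), and the difference of -1 on the log2 scale passed (edgeR adjusted p = 1.99e-05). It had counts of 331 and 298 (vehicle), 544 and 510 (12-HETE), 343 and 331 (vector) and 297 and 309 (ADAR1 p150). The other 10 passed in neither comparison, where 15.1% of all genes were higher with 12-HETE and 11.1% lower with ADAR1 p150.

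Of 23 other G1/S regulators, 12 were tested, and E2f5 and Myc passed in both comparisons. E2f5, a repressive E2F factor, rose, with log2 fold changes of 0.69 with 12-HETE and 0.65 with ADAR1 p150. Myc, a transcription factor that drives growth and G1/S genes, fell, at -2.26 with 12-HETE (edgeR adjusted p = 3.1e-05) and -1.38 with ADAR1 p150 (edgeR adjusted p = 0.0103). It had counts of 26 and 42 (vehicle), 11 and 5 (12-HETE), 21 and 24 (vector) and 8 and 13 (ADAR1 p150), with no overlap in either comparison. Among 18 genes of nucleotide supply and S phase, 12 were tested and 3 rose with 12-HETE, against 15.1% of all genes. All 12 log2 fold changes with 12-HETE were above 0 (3478 of the 6901 genes tested were), with a median of 0.35 against 0.0044. Gmps, guanylate synthase (0.52), and Tk1, thymidine kinase (0.37), were among those that rose with 12-HETE. With ADAR1 p150, 2 of the 12 rose and 1 fell, against 14.5% and 11.1% of all genes. Those that rose were Shmt1, a folate cycle enzyme (0.86), and Tk1 (0.38). Dnmt1, the maintenance DNA methyltransferase, fell (-0.79, edgeR adjusted p = 0.0402). Its libraries overlapped, at 23.7 and 60.3 normalised CPM with vector and 26.7 and 21.9 with ADAR1 p150.

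Of 18 genes of the p53 pathway, 11 were tested. With 12-HETE, 1 was higher and 3 were lower, against 15.1% and 14.2% of all genes. With ADAR1 p150, 1 was higher and 1 lower, against 14.5% and 11.1% of all genes. With 12-HETE, Trp53, which encodes p53 itself, rose (log2 fold change 1.26, edgeR adjusted p = 0.0132), while the p53 targets Aen (-2.61), Gdf15 (-2.04) and Bbc3 (-0.66) fell. The study lists Trp53 as mutated in EO771 cells, and the activity of p53 was not tested. With ADAR1 p150, Ccng1 rose (1.65) and Gdf15 fell (-1.31). The p53 target Cdkn1a passed in neither comparison. Of the genes named from these lists, Mcm9, Tk1 and Shmt1 share exon bases with an opposite-strand gene, and the part of their counts that comes from there was not tested.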

How the data were processed

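RNA-seq libraries of EO771 cells were grouped by the treatment in the labels, with 2 libraries in each of 4 groups. The authors deposited raw counts per gene symbol, with no normalisation. According to the methods, reads passed a quality check in FastQC and removal of duplicates in prinseq, STAR placed them on GRCm38, and featureCounts counted fragments, but its strand setting was not given in the sources used here. The labels and the methods name different extraction and library kits. The dose, time and vehicle come from the methods. Because duplicates were removed, counts are not the original numbers of fragments, and floors of 3 counts (2.11 to 2.74 normalised CPM) cover counting error only.

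The 6901 genes whose counts averaged 10 or more per library were normalised by TMM and fitted together in edgeR 4.0.16 (limma 3.58.1, R 4.3.3) with a coefficient per group, using the quasi-likelihood test. Passing was a Benjamini-Hochberg adjusted p under 0.05 over all genes tested. A standard error is the size of the log2 fold change divided by the square root of F. The script was tested on simulated counts.

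Members and lists were chosen with earlier results of these data known. Values per library were given for members that passed in a comparison or in the difference, and for Pcna, Mcm2, Mcm5, Ccnd1, Ccne1, Cdk4, Cdkn1a, Cdkn1b, E2f1, Rb1, Rrm1 and Rrm2. Of the other lists, members that passed were named, at most the 4 highest and 4 lowest. A few listed genes are not reported here. Opposite-strand genes were named where they had more counts than the member, apart from Tmem258, Lat2 and Acvr2a, which were chosen after their values were seen. The values per library of Mcm9, Myc and LTO1 were also chosen in this way. Gene positions and strands were those of GENCODE M21, which held all 59 members, and promoter sequences those of RefSeq GRCm38.p6. Alternatives were DESeq2 1.42.0, RLE factors, leaving out AY036118 and Rn7s genes, no minimum, 10 counts in every library, the libraries of a comparison alone, a replicate block, a 2-fold threshold, members with no opposite-strand gene, log2 fold changes minus the median of the chromosome, and leaving out each library.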

Additional observations from a re-analysis of the deposited data

Results flagged for a closer look

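These results were singled out because the effect of ADAR1 p150 and that of 12-HETE differed in the test of the difference itself, from edgeR with adjustment over all genes. For Fen1 the difference was -0.71 on the log2 scale (edgeR adjusted p = 0.002), with 12-HETE raising it and ADAR1 p150 giving a value near 0. For Mcm9 the difference was -1 (edgeR adjusted p = 1.99e-05). Of the genes opposite members, Ints8 differed by -0.61 (edgeR adjusted p = 0.012), Gse1 by -0.97 (edgeR adjusted p = 0.000589), Gm12743 by -0.82 (edgeR adjusted p = 0.00857) and Eif4a2 by -1.22 (edgeR adjusted p = 0.00577). In these 6 the effect of ADAR1 p150 was the lower. For the epithelial marker Krt19 it was the higher, by 1.09 (edgeR adjusted p = 0.0184), and over all genes 572 of the 1033 differences that passed were of that sign.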

How the results depend on the processing

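The count of members that passed with 12-HETE, 9 as reported, was 11 with the libraries of the comparison alone and 10 with RLE factors (1 of them lower in each), 2 with DESeq2, 6 with 10 counts required in every library, 5 among members with no opposite-strand gene, 5 with a 2-fold threshold, and 5 to 9 when single libraries were left out, with 5 without vehicle replicate 4 or 12-HETE replicate 4. With ADAR1 p150, 2 as reported became 0 with DESeq2, 0 with no minimum, 4 with RLE factors, 4 without AY036118 and Rn7s genes, 1 with the libraries of the comparison alone, 0 without overlapping members, and 1 with a 2-fold threshold. When single libraries were left out, the member that passed and its direction changed, so those fits do not show that Orc4 and Rfc2 held. For the difference, 1 as reported became 2 with 10 counts in every library, 0 among members with no opposite-strand gene, 0 with a 2-fold threshold, and 1 to 3 when single libraries were left out. The median with ADAR1 p150 was -0.18 with no minimum, and the median for vector against vehicle was -0.53 to -0.15 when single libraries were left out. Medians for 12-HETE were 0.34 to 0.52, those for ADAR1 p150 0.0045 to 0.27 and those for the difference -0.52 to -0.15 when single libraries were left out. The causes were not tested.

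The sign turned for 12-HETE in Cdkn1a (-0.77 to 0.55 when a library was left out, with 0.55 without vehicle replicate 5 and 0.20 without 12-HETE replicate 5), and for ADAR1 p150 in Mcm2 (0.028 with 10 counts in every library, 0.082 and 0.0045 when a library was left out), Pcna (-0.087 to 1.01), Cdk4 (-0.056 to 0.62) and Cdkn1b (-0.31 to 0.79), the last 3 as ranges when a library was left out. Over all named values, 255 kept their direction and their side of the threshold, 32 lost the threshold and 8 gained it.

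Same-numbered libraries deviated with correlations of -0.0774 and -0.112, so the numbers were not taken as pairs. With the replicate number as a block, 8 members passed with 12-HETE, 2 with ADAR1 p150 and 1 in the difference. With the pairing crossed in the ADAR1 p150 comparison, chosen after seeing the data, 2 passed with ADAR1 p150 and 2 in the difference. Depth limits the 32 members below the minimum, which have no test.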
